A study of Arabidopsis thaliana with 6 samples.

Results

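CAF1A, CAF1B, SZF1, SZF2, SOM, TZF5 and PEI1 are 7 Arabidopsis genes for proteins that act on the poly(A) tail and the fate of messenger RNA. They were chosen by locus, with earlier results of these data known, as 7 of 34262 genes listed in RNA sequencing tables of seedlings. All 7 are among the 23542 genes that had reads and a test. CAF1A and CAF1B are 2 of 11 listed CAF1-type deadenylases, and the other 5 are among 11 listed genes for plant tandem CCCH zinc finger (TZF) proteins. The study compared 3 genotypes of Arabidopsis thaliana Col-0, with 2 libraries each, from seedlings grown for 14 days in long days at 22 °C. The genotypes were the mutant jmj28, the line JMJ28np5-OE and wild type (WT). The allele of jmj28, the promoter behind JMJ28np5-OE, the meaning of np5 and the number of independent lines or pooled plants are not stated in the labels, and OE was read as overexpression. JMJ28 encodes a JmjC-domain protein of the KDM3 type, a group of histone demethylases.

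Deadenylation is the shortening of the poly(A) tail, and it is usually the first step in the decay of a messenger RNA. CAF1 proteins are catalytic subunits of the CCR4-NOT complex, which carries out this step across eukaryotes. CCCH zinc finger proteins bind RNA; tristetraprolin, a tandem zinc finger protein of mammals, brings CCR4-NOT to its target RNAs. In Arabidopsis the CAF1A and CAF1B genes are known for their response to wounding and other stresses, and SZF1 and SZF2 for induction by salt and by elicitors of defence. SOM, TZF5 and PEI1 are known from seeds, where SOM represses germination in the dark downstream of the phytochrome-interacting factor PIL5 and PEI1 is needed in the embryo.

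All levels below are in RPKM, read counts relative to exon length and to the depth of the library, and a gene was called where the false discovery rate (FDR) in the authors' deposited table was under 0.05. The deposited files give genotype means and no value per library. Whole reads of both libraries were solved from the means for the genotypes with the highest and second-highest mean of a gene, and the libraries of a genotype are named deeper and shallower by their totals. The lowest mean is reached by dividing through the deposited fold change and is called implied, with no spread. Over 4047 genes, the log2 ratio of solved means for JMJ28np5-OE against WT lay at a median of -0.02 from the deposited value (SD 0.01). This offset was not measured for the comparisons with jmj28, through which the implied jmj28 means were reached. Library totals ran from 10632893 to 19693228 reads. JMJ28 itself (AT4G21430) had an implied mean of 3.12 RPKM in jmj28 and 244 and 307 RPKM in JMJ28np5-OE seedlings, against 6.90 and 6.50 RPKM in WT, so transcripts from the locus were still counted in the mutant. The labels do not say that replicates came from separate cultures, and neither they nor the file headers name the test or its model of the spread; the p-values can at most reflect the spread between these libraries, which may be technical.

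The 300 bases upstream of the annotated start of SZF1 and SZF2 are shown because both genes were called between JMJ28np5-OE and WT and both windows hold the same pair of motif cores. They are RefSeq sequence of TAIR10.1, written 5′ to 3′ on the gene's strand, with capitals on the W box core TTGAC, or its reverse complement GTCAA, the element that WRKY transcription factors bind. SZF1 (plus strand) is read from chr3:20775920-20776219 and SZF2 (plus strand) from chr2:16771697-16771996.
SZF1: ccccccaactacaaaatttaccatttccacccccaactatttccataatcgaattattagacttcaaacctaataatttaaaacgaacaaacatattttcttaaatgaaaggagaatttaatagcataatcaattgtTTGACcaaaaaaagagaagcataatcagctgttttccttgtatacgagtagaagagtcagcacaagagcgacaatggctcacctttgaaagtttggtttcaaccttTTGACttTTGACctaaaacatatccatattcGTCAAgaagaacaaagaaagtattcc
SZF2: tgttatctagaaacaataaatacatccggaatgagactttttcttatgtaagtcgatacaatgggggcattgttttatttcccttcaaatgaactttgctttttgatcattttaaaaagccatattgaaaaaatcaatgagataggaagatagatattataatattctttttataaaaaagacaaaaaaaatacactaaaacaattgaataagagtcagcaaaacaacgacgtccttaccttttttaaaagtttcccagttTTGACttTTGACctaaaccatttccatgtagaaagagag

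The SZF1 window held 4 W box cores and the SZF2 window 2, while that of TZF5 held 1 and those of CAF1B, SOM and PEI1 held none. Over 27437 upstream windows of the same length, 50.4% held TTGAC on either strand and 17.9% held it at least 2 times. SZF1 and SZF2 share a run of 19 bases with 2 cores spaced by 2 bases.
Shared run: ttTTGACttTTGACctaaa
This run starts 59 bases before the SZF1 gene and 41 bases before the SZF2 gene. The spaced pair of cores (TTGACNNTTGAC, either strand) was found in 107 of the 27437 windows, which is 0.390%, among them those of SZF1 and SZF2 but none of the other 4 members shown. The pair was looked for after the windows had been seen. The abscisic acid response core ACGTG was found 1 time each in CAF1B and TZF5, against 25.6% of windows. The rapid stress response element CGCGTT and its core CGCG, searched on both strands, were in none of these 6 windows; 3.08% and 11.8% of all windows held them. A match of letters is a description of the window and not a binding site.

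**Figure D1:**
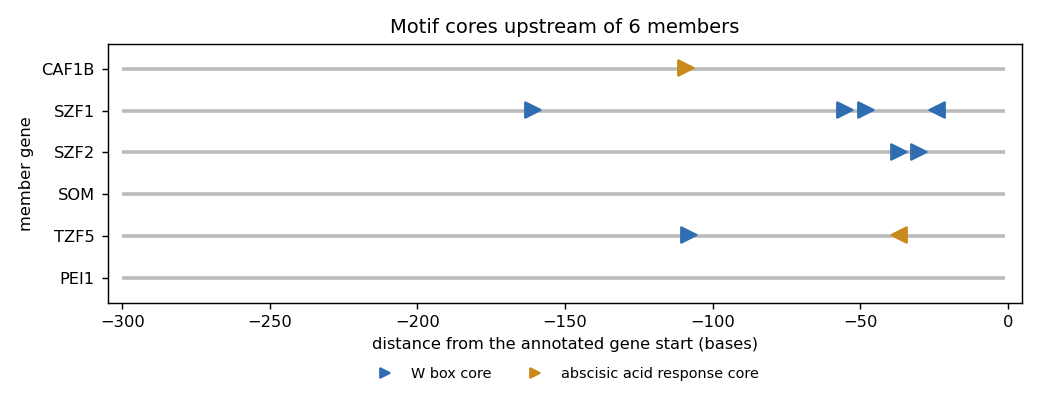
Positions of motif cores in the 300 bases upstream of 6 members; the horizontal axis is the distance from the annotated gene start in bases, and arrowheads point right on the gene's strand and left on the opposite strand. SZF1 and SZF2 each carry 2 W box cores next to each other close to the gene start.

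CAF1A was called in each of the 3 comparisons: relative to WT its level fell in jmj28 and rose in JMJ28np5-OE. SZF1 also passed in both comparisons against WT, with the same signs. The log2 fold change of CAF1A for JMJ28np5-OE against WT, 1.55, was close to that of SZF1, 1.51, and their order turned without the shallower WT library (0.93 for CAF1A and 1.13 for SZF1) and without the deeper JMJ28np5-OE library (1.83 and 1.88). SZF2 and TZF5 were called higher in JMJ28np5-OE than in WT and were not called in jmj28 against WT, and CAF1B was called only between jmj28 and JMJ28np5-OE. SOM and PEI1 were close to undetected in every genotype. Against WT, 2 of 7 members were called lower in jmj28 and 0 higher, where 1.1% of all tested genes were called lower and 0.208% higher. In JMJ28np5-OE against WT, 4 of 7 were called higher and 0 lower, against 2.87% and 0.684% of all tested genes. Between jmj28 and JMJ28np5-OE, 5 of 7 were lower in jmj28 and 0 higher, against 7.29% and 4.12%. These comparisons share libraries in pairs, so they are not independent of each other. The members were chosen with earlier results of these data known, so the counts describe them and test nothing. In whole seedlings fewer cells of a type and less RNA per cell cannot be told apart. The median log2 fold change of the 7 members in the authors' deposited table was -0.54 for jmj28 against WT, 0.73 for JMJ28np5-OE against WT and -1.39 for jmj28 against JMJ28np5-OE, while the medians over all tested genes were -0.0042, 0.0020 and -0.02.

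**Figure D2:**
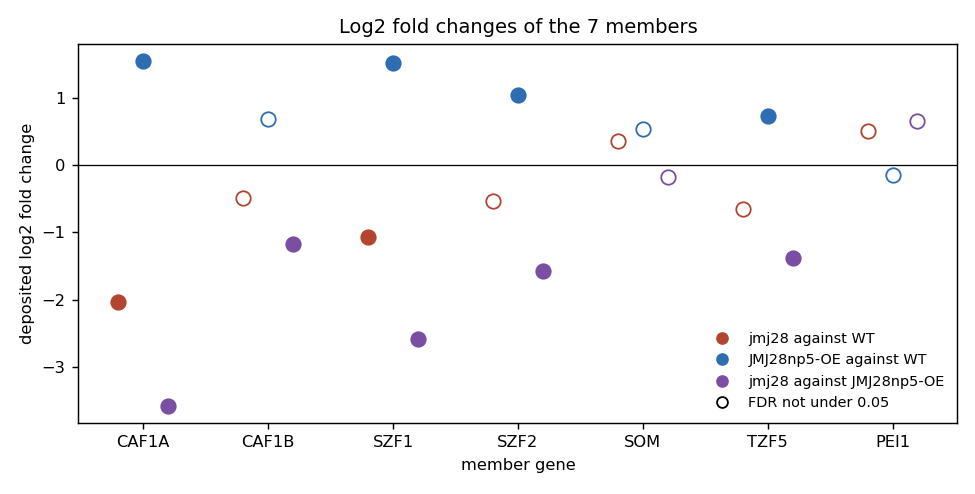
Deposited log2 fold changes of the 7 members in the 3 comparisons, filled where the deposited FDR was under 0.05 and open where it was not. CAF1A, at -2.03, 1.55 and -3.58, spans the widest range.

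CAF1A (AT3G44260, listed as CAF1-9; TAIR10 chromosome 3, 15952008 to 15953346, minus strand, 1 exon) had an implied mean of 4.17 RPKM in jmj28 and 37.5 and 60.5 RPKM in the deeper and shallower JMJ28np5-OE libraries, against 25.7 and 8.40 RPKM in the deeper and shallower WT libraries. The solved values rest on 621 and 862 reads in JMJ28np5-OE and 678 and 161 reads in WT. The JMJ28np5-OE libraries both exceeded the higher WT library, as in 29.7% of the 7523 genes with these 4 libraries solved. The WT libraries differed by 3.06-fold from each other. In the authors' deposited table CAF1A was 4.09-fold lower in jmj28 than in WT (log2 fold change -2.03, FDR 8.3e-06). In the same authors' deposited table it was 2.92-fold higher in JMJ28np5-OE than in WT (log2 fold change 1.55, FDR 0.000557). Between jmj28 and JMJ28np5-OE the log2 fold change in the authors' deposited table was -3.58, with an FDR listed as 0. The size of both changes against WT depended on the WT libraries: without the deeper one the log2 ratio of means was -1.01 for jmj28 and 2.54 for JMJ28np5-OE, and without the shallower one it was -2.62 and 0.93. The direction stayed the same in these 4 ratios.

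CAF1B (AT5G22250, listed as CAF1-11; chromosome 5, 7365477 to 7366799, minus strand, 1 exon) is the closest relative of CAF1A, with 79.3% identity over 275 aligned residues of proteins of 278 and 280 residues. It had an implied mean of 2.94 RPKM in jmj28 and 4.82 and 8.32 RPKM in JMJ28np5-OE seedlings, against 4.57 and 3.70 RPKM in WT. The lower JMJ28np5-OE library was close to the higher WT library, with a log2 ratio of 0.08. Its log2 fold changes in the authors' deposited table were -0.49 for jmj28 against WT (FDR 1.0) and 0.68 for JMJ28np5-OE against WT (FDR 0.22), so neither was called. The only call was between jmj28 and JMJ28np5-OE, at -1.17 in the authors' deposited table (FDR 0.0012). Per length, CAF1A stood above CAF1B in each genotype: its mean was 4.17 against 2.94 RPKM in jmj28, 49.0 against 6.57 RPKM in JMJ28np5-OE and 17.1 against 4.13 RPKM in WT. The longest run shared by both transcripts is 32 bases, shorter than the reads of 150 bases.

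SZF1 (AT3G55980; chromosome 3, 20776220 to 20778952, plus strand, 4 exons), a salt-inducible zinc finger gene, had an implied mean of 6.94 RPKM in jmj28 and 27.9 and 53.7 RPKM in JMJ28np5-OE seedlings, against 18.6 and 10.5 RPKM in WT. The solved reads numbered 807 and 1336 in JMJ28np5-OE and 857 and 352 in WT. Both JMJ28np5-OE libraries exceeded both WT libraries, as in 29.7% of the 7523 genes with these 4 libraries solved. The implied jmj28 mean lay below both WT libraries, by 0.60 on the log2 scale for the nearer one. In the authors' deposited table SZF1 was 2.10-fold lower in jmj28 than in WT (log2 fold change -1.07, FDR 0.00326) and 2.85-fold higher in JMJ28np5-OE than in WT (1.51, FDR 1.98e-07). For jmj28 against JMJ28np5-OE the authors' deposited table gives -2.58 with an FDR listed as 0.

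SZF2 (AT2G40140, listed as CZF1; chromosome 2, 16771997 to 16774734, plus strand, 4 exons) is 75.4% identical to SZF1 over 561 aligned residues, and their transcripts share no run longer than 36 bases. It had an implied mean of 14.7 RPKM in jmj28 and 35.3 and 51.0 RPKM in JMJ28np5-OE seedlings, against 24.8 and 17.6 RPKM in WT. Each JMJ28np5-OE library exceeded each WT library, an order seen in 29.7% of the genes with these libraries solved. The log2 ratio between the nearest ones was 0.50. The authors' deposited table gives a log2 fold change of 1.05 for JMJ28np5-OE against WT (FDR 9.58e-07). For jmj28 against WT it was -0.54 in the authors' deposited table and was not called (FDR 0.169). Whether the jmj28 difference of SZF1 exceeds that of SZF2 was not tested.

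TZF5 (AT5G44260, without a symbol in the files; chromosome 5, 17829618 to 17831336, minus strand, 1 exon) had the smallest spread between libraries. Its implied mean was 2.99 RPKM in jmj28 and its levels were 7.61 and 7.77 RPKM in JMJ28np5-OE seedlings, against 4.61 and 4.84 RPKM in WT. These values rest on 162 and 142 reads in JMJ28np5-OE and 156 and 119 reads in WT, and the nearest libraries of both genotypes were 0.65 apart on the log2 scale. In the authors' deposited table the log2 fold change was 0.73 for JMJ28np5-OE against WT (FDR 0.0205) and -0.66 for jmj28 against WT (FDR 0.208). Between jmj28 and JMJ28np5-OE it was -1.39 in the authors' deposited table (FDR 6.6e-08).

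SOM (AT1G03790; chromosome 1, 954290 to 956144), the seed germination repressor, had 0 and 4 reads in jmj28 and 1 and 3 reads in JMJ28np5-OE in the deeper and shallower libraries. A count of 0 allows up to 3 reads in the deeper jmj28 library, or 0.119 RPKM. Its mean was 0.0914 RPKM in jmj28 and 0.0978 RPKM in JMJ28np5-OE seedlings, against an implied 0.0715 RPKM in WT. PEI1 (AT5G07500; chromosome 5, 2372619 to 2373655), the embryo gene, had 7 and 4 reads in jmj28 against 8 and 2 in WT, and an implied mean of 0.238 RPKM in JMJ28np5-OE. Differences in these genes were not detectable at this depth, and no comparison called either of them. SOM is 73.4% identical to TZF5, its closest relative in the family, yet their levels per length differed: TZF5 averaged 7.69 RPKM in JMJ28np5-OE and SOM 0.0978 RPKM. The tandem finger pattern was found in all 11 proteins of the TZF list; in SOM and TZF5 the first finger has 8 residues between its first and second cysteine, against 7 in the others.

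**Figure D3:**
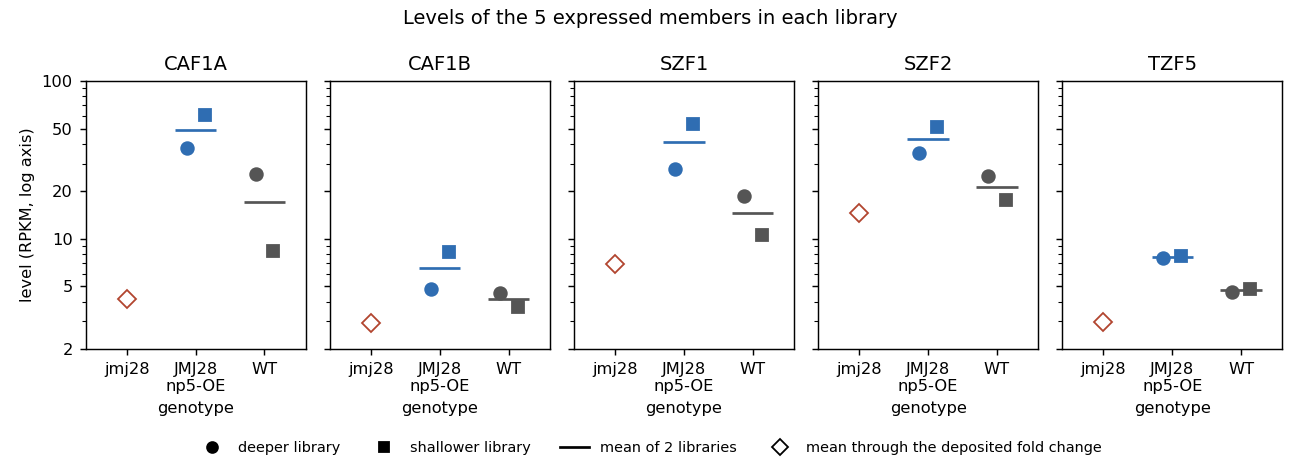
Levels in RPKM on a log axis of the 5 members with means of at least 1 RPKM, with circles for the deeper and squares for the shallower library, lines at the mean of solved libraries, and open diamonds for jmj28 means implied by the deposited fold change. The JMJ28np5-OE libraries lie above the WT libraries in each panel, narrowly for CAF1B at 4.82 against 4.57 RPKM. This order was seen in 29.7% of the 7523 genes with these 4 libraries solved.

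For the 5 members with means of at least 1 RPKM, each JMJ28np5-OE library exceeded each WT library. Among the 7523 genes with all 4 of these libraries solved, which are by construction genes whose lowest mean was in jmj28, 29.7% did so. With 2 libraries against 2 an exact permutation test cannot give a two-sided p below 0.333, so no test was run on the library values.

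CAF1A, CAF1B, SZF1 and SZF2 also differed between libraries of one genotype, while the libraries of TZF5 lay close together. In JMJ28np5-OE these 4 were higher in the shallower library, with log2 ratios of deeper over shallower between -0.53 for SZF2 and -0.95 for SZF1. TZF5 stood at -0.03, against a median of -0.06 over genes above 5 RPKM with solved libraries. In WT the 4 were higher in the deeper library, by 0.30 for CAF1B to 1.61 for CAF1A. TZF5 stood at -0.07, against a median of -0.02 over such genes. Over genes above 5 RPKM with solved libraries this ratio had an SD of 0.18 in jmj28, 0.27 in JMJ28np5-OE and 0.18 in WT. The WT means of CAF1B (4.13 RPKM) and TZF5 (4.72 RPKM) lay below this minimum. A difference between the WT libraries as large as that of CAF1A was seen in 0.0756% of 10577 such genes, one as large as that of SZF1 in 0.397%, of SZF2 in 1.60%, of CAF1B in 6.80% and of TZF5 in 58.8%. In JMJ28np5-OE a difference as large as that of SZF1 was seen in 0.785% of 7133 genes, of CAF1B in 1.70%, of CAF1A in 2.50%, of SZF2 in 5.97% and of TZF5 in 88.6%.

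**Figure D4:**
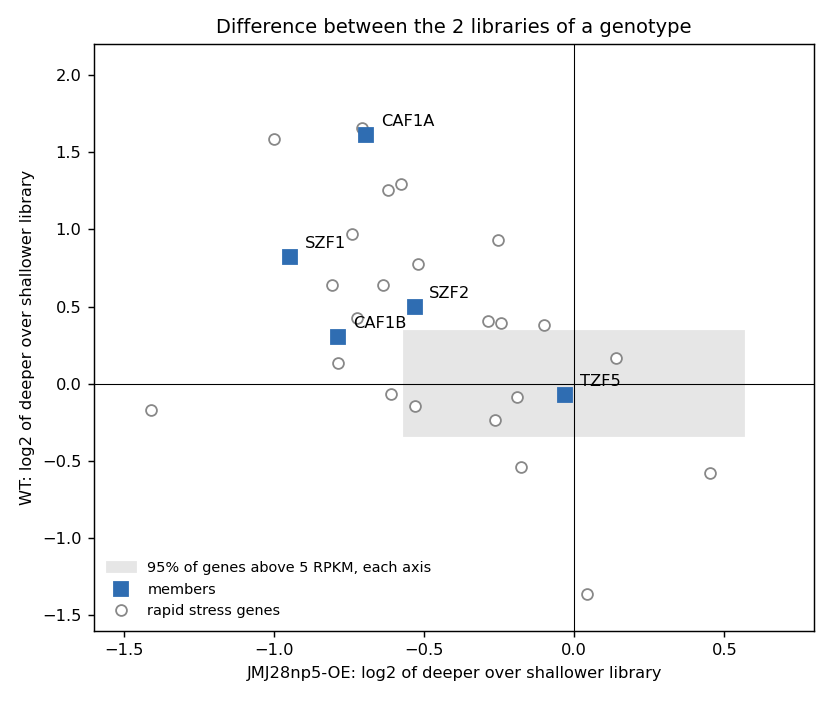
Log2 ratio of the deeper over the shallower library in JMJ28np5-OE (horizontal) and WT (vertical). Shown are 5 members and 23 rapid stress genes with both genotypes solved and means of at least 1 RPKM. The grey box spans 95% of solved genes above 5 RPKM on each axis. CAF1A, CAF1B, SZF1 and SZF2 lie with 14 of the 23 rapid stress genes in the upper left, higher in the shallower JMJ28np5-OE library and in the deeper WT library.

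Beyond CAF1A and CAF1B, 9 further CAF1 genes were listed. CAF1C and CAF1E had no reads. Of the 7 tested, none was called in jmj28 against WT or in JMJ28np5-OE against WT. At an unadjusted deposited p under 0.05 the counts were 1 and 0, against 2022 and 3339 of the 23542 tested genes. Over all tested genes 1.1% were called lower and 0.208% higher in jmj28 against WT. The shares were 2.87% higher and 0.684% lower in JMJ28np5-OE against WT. With 7 genes, a count of 0 cannot be told apart from such shares. CAF1G had 1.40 and 1.63 RPKM in JMJ28np5-OE seedlings, against 1.09 and 0.577 RPKM in WT, with an implied 0.157 RPKM in jmj28. Against WT its log2 fold changes in the authors' deposited table were -2.41 for jmj28 (FDR 0.119) and 0.80 for JMJ28np5-OE (FDR 0.693). It was the 1 further gene called between jmj28 and JMJ28np5-OE, at -3.21 in the authors' deposited table (FDR 0.000793). Of all tested genes, 7.29% were called lower and 4.12% higher in that comparison. The most abundant family member was CAF1K, with means of 62.5 RPKM in jmj28, an implied 62.6 RPKM in JMJ28np5-OE and 65.6 RPKM in WT. CAF1H, CAF1I and CAF1D, which the rule also named, had log2 fold changes between -0.30 and 0.38 against WT in the authors' deposited table. Per length, the mean of CAF1A in jmj28 lay below those of CAF1H (23.4 RPKM) and CAF1J (44.9 RPKM). In JMJ28np5-OE it lay above the implied mean of CAF1H (19.1 RPKM). Beside CAF1J there, CAF1A was level in the deeper library (37.46 against 37.45 RPKM) and higher in the shallower one (60.5 against 47.3 RPKM).

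Among the 6 TZF genes outside the members, TZF1 and TZF3 were called lower in jmj28 than in WT and TZF1 was called higher in JMJ28np5-OE. Of all tested genes, 1.1% were called lower in jmj28 than in WT and 2.87% higher in JMJ28np5-OE than in WT. TZF1, a cytoplasmic zinc finger protein linked to abscisic acid and gibberellin responses, had an implied mean of 11.2 RPKM in jmj28 and 24.6 and 31.3 RPKM in JMJ28np5-OE seedlings, against 21.8 and 13.8 RPKM in WT. In the authors' deposited table its log2 fold change was -0.66 for jmj28 (FDR 0.0348) and 0.67 for JMJ28np5-OE (FDR 0.00949). TZF3 was lower in jmj28 by a log2 fold change of -0.54 in the authors' deposited table (FDR 0.0182) and at 0.28 in JMJ28np5-OE (FDR 0.479). TZF1, TZF3 and TZF9 were called lower in jmj28 than in JMJ28np5-OE, as were 7.29% of all tested genes. TZF2, TZF7 and TZF8 were called in none of the 3 comparisons. Per length, the mean of SZF2 stood above that of SZF1 in each genotype. In WT, SZF2 was higher in the deeper (24.8 against 18.6 RPKM) and the shallower library (17.6 against 10.5 RPKM). In JMJ28np5-OE it was higher in the deeper library (35.3 against 27.9 RPKM) and lower in the shallower one (51.0 against 53.7 RPKM). TZF7 stood highest of the family in jmj28 with 32.9 RPKM.

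**Figure D5:**
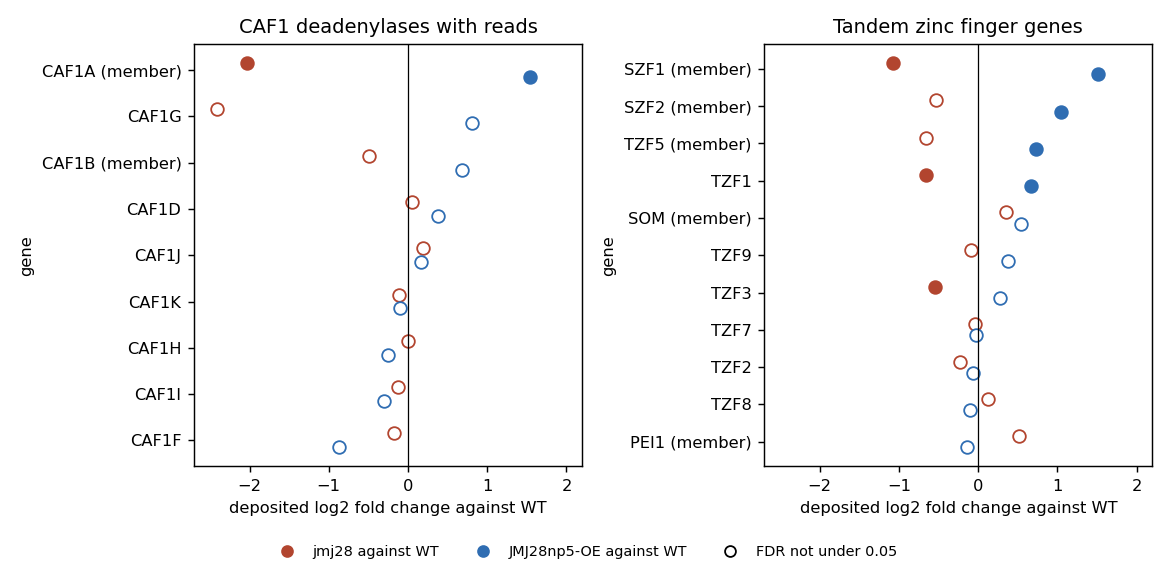
Deposited log2 fold changes against WT of the 9 CAF1 genes with reads (left) and the 11 TZF genes (right), filled where the deposited FDR was under 0.05. In JMJ28np5-OE the called CAF1A, SZF1, SZF2, TZF5 and TZF1 stand between 0.67 and 1.55, and CAF1G at 0.80 and CAF1B at 0.68 stand among them without a call.

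Genes of the machinery that CAF1 and zinc finger proteins work with were read beside the shares of all tested genes called. These shares were 1.1% lower and 0.208% higher in jmj28 against WT, and 2.87% higher and 0.684% lower in JMJ28np5-OE against WT. For jmj28 against JMJ28np5-OE they were 7.29% lower and 4.12% higher. Counts as small as those below cannot be told apart from such shares. Of 12 CCR4-NOT partners (NOT, CCR4 and CAF40 genes), 0 were called in jmj28 against WT, also at an unadjusted deposited p under 0.05. In JMJ28np5-OE against WT 1 was called, NOT2B, with a log2 fold change of 0.47 in the authors' deposited table (FDR 0.025). Between jmj28 and JMJ28np5-OE the 1 call was NOT10, higher in jmj28 by 0.39 in the authors' deposited table (FDR 0.00598). CCR4B and NOT4A, named by the rule, were not called. Of 18 decapping and decay genes 0 were called against WT in either comparison, with 2 and 1 at an unadjusted deposited p under 0.05. At that p the counts over all 23542 tested genes were 2022 and 3339. The cytoplasmic poly(A)-binding protein gene PAB8 and the RNA helicase gene RH12 were called higher in jmj28 than in JMJ28np5-OE, by log2 fold changes in the authors' deposited table of 0.43 (FDR 6.1e-05) and 0.30 (FDR 0.0219). Both list medians lay within 0.1 of 0 on the log2 scale in each comparison.

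CAF1A, SZF1 and SZF2 are counted among the genes that respond within minutes to touch, cold, wounding and elicitors, and a list of 28 other such genes was read beside them. The list was chosen with earlier results of these data known. Of its genes, 4 were called lower in jmj28 than in WT and 0 higher, with a median log2 fold change of -0.70. Over all tested genes 1.1% were called lower and 0.208% higher, with a median of -0.0042. In JMJ28np5-OE against WT 16 were called higher and 0 lower, with a median of 1.01. The shares over all tested genes were 2.87% and 0.684%, and the median 0.0020. Between jmj28 and JMJ28np5-OE 26 were lower in jmj28 and 0 higher, with a median of -1.87. Here the shares over all tested genes were 7.29% and 4.12%, and the median -0.02. The 4 lower in jmj28 were ZAT10 (a zinc finger repressor), ZAT6, ERF104 (an ethylene response factor) and TCH3 (a calmodulin-like protein). ZAT10 had an implied 2.83 RPKM in jmj28 and 28.0 and 42.9 RPKM in JMJ28np5-OE seedlings, against 13.7 and 5.74 RPKM in WT. Its log2 fold changes in the authors' deposited table were -1.78 for jmj28 against WT (FDR 5.03e-06) and 1.89 for JMJ28np5-OE against WT (FDR 6.17e-09). With the deeper WT library left out, ZAT10 stood at -1.02 and 2.63 in the same order, as log2 ratios of means.

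TCH4, a touch-induced xyloglucan endotransglucosylase, had an implied 5.91 RPKM in jmj28 and 23.6 and 39.0 RPKM in JMJ28np5-OE seedlings, against 11.1 and 8.22 RPKM in WT. Its log2 fold change for JMJ28np5-OE against WT was 1.72 in the authors' deposited table, with an FDR listed as 0. WRKY40, one of the factors that bind W boxes, had 7.32 and 19.4 RPKM in JMJ28np5-OE seedlings, against 2.91 and 3.27 RPKM in WT, and was called at 2.14 in the authors' deposited table (FDR 2.01e-07). Without the shallower JMJ28np5-OE library its log2 ratio of means was 1.24. TCH3 had 35.2 and 50.9 RPKM in JMJ28np5-OE seedlings, against 23.1 and 25.6 RPKM in WT. Like CAF1A, CAF1B, SZF1 and SZF2, 23 of 27 solved genes of this list were higher in the shallower JMJ28np5-OE library. In WT, 16 of 24 were higher in the deeper library. The list medians of the log2 ratio of deeper over shallower were -0.58 in JMJ28np5-OE and 0.38 in WT. For solved genes above 5 RPKM these medians were -0.06 and -0.02, so the shallower JMJ28np5-OE library was also slightly favoured there. The part of this difference between libraries in the genotype differences was not tested. The 6 CAMTA genes, for transcription factors that bind CGCG-type elements of rapid stress genes, were called in 0 of the 3 comparisons. At an unadjusted deposited p under 0.05 they numbered 0, 0 and 1, against 2022, 3339 and 5723 of all 23542 tested genes. With 6 genes, such counts cannot be told apart from the shares over all tested genes.

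By distance between the pairs of log2 fold changes against WT in the authors' deposited table, the nearest to CAF1A of 14069 genes whose highest genotype mean was at least 5 RPKM was AT1G07135, at 0.0587, followed by FAMT (AT3G44860, 0.157), RPP2C (AT3G28500, 0.174), NIMIN-1 (AT1G02450, 0.358) and PUMP4 (AT4G24570, 0.402). FAMT encodes a farnesoic acid methyltransferase, RPP2C an acidic ribosomal protein, NIMIN-1 a protein that binds the defence regulator NPR1, and PUMP4 a mitochondrial carrier. FAMT, RPP2C and NIMIN-1 reached 5 RPKM in JMJ28np5-OE alone, the genotype where they are high, so their likeness to CAF1A is in part fixed by this minimum. NIMIN-1 was not called against WT in either comparison. AT1G07135 resembled CAF1A also by library, with 52.1 and 82.4 RPKM in JMJ28np5-OE seedlings, against 38.2 and 9.31 RPKM in WT. PUMP4 did so too, with 23.5 and 43.1 RPKM in JMJ28np5-OE seedlings, against 14.8 and 3.52 RPKM in WT. The other 3 ran opposite to CAF1A between the WT libraries. FAMT had 7.30 and 4.93 RPKM in JMJ28np5-OE seedlings, against 0.918 and 3.03 RPKM in WT. RPP2C had 5.78 and 5.74 RPKM in JMJ28np5-OE seedlings, against 1.66 and 2.72 RPKM in WT. NIMIN-1 had 3.76 and 6.94 RPKM in JMJ28np5-OE seedlings, against 1.06 and 3.70 RPKM in WT. The size of these changes depended on the WT libraries. With the deeper one left out, the log2 ratio of means for jmj28 against WT was -0.63 for AT1G07135, -2.75 for FAMT and -0.87 for PUMP4, and without the shallower one it was -2.66, -1.02 and -2.95 for these genes. For JMJ28np5-OE against WT the ratios were 2.85, 1.01 and 3.24 without the deeper WT library, and 0.82, 2.74 and 1.17 without the shallower one. Of the listed genes, ERF104 ranked 6 and ZAT10 ranked 8. SZF1 ranked 30, SZF2 116, TZF5 120 and CAF1B 185. TZF5 and CAF1B also reached 5 RPKM in JMJ28np5-OE alone, with means of 7.69 and 6.57 RPKM there, so the same limit holds for their ranks.

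Calls in jmj28 against WT covered 1.1% of all tested genes as lower and 0.208% as higher. In JMJ28np5-OE against WT these shares were 0.684% and 2.87%, and between jmj28 and JMJ28np5-OE 7.29% and 4.12%. At an unadjusted deposited p under 0.05 the 3 comparisons had 2022, 3339 and 5723 of 23542 tested genes. With lists as short as those below, a count of 0 cannot be told apart from such shares. Beside these, genes of the hormone pathway around SOM in seeds were read as well. Of 10 tested, which include the gibberellin enzymes GA3OX1 and GA3OX2, the abscisic acid enzymes ABA1 and CYP707A2, the abscisic acid signalling factor ABI5 and the upstream factor PIL5, 0 were called in the 3 comparisons, and 1 in each had an unadjusted deposited p under 0.05. CYP707A2, which breaks down abscisic acid, was nearest to a call, at 0.65 for JMJ28np5-OE against WT in the authors' deposited table (FDR 0.085). The labelled tissue was set against marker lists. The 7 seed markers with reads had summed means of 0.281 RPKM in jmj28, 0.292 RPKM in JMJ28np5-OE and 0.617 RPKM in WT, EM1 and LEC1 had no reads, and 0 were called or had an unadjusted deposited p under 0.05. The 9 root markers had summed means of 98.5 RPKM in jmj28, 68.6 RPKM in JMJ28np5-OE and 71.5 RPKM in WT, and the sum was 93.5 and 103 RPKM in the deeper and shallower jmj28 libraries. TIP2;3 and AGP30, both expressed in roots, were called higher in jmj28 than in WT, against 0.208% of all tested genes. In the authors' deposited table they stood at 1.01 (FDR 0.000131) and 0.93 (FDR 0.00169). Between jmj28 and JMJ28np5-OE 4 root markers were called higher in jmj28, against 4.12% of all tested genes. Of the 9, 7 lay above 0 and 2 below for jmj28 against WT. MYB36 and EXPA7, also named by the rule, were not called: in the authors' deposited table MYB36 stood at 0.35 for jmj28 and 0.86 for JMJ28np5-OE against WT (FDR 0.0559), and EXPA7 at -0.12 and -0.62. The part of organ proportions in the differences of CAF1A and SZF1 was not tested.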

How the data were processed

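RNA of 14-day-old seedlings was read in pairs of 150 bases on an Illumina NovaSeq, per the labels, from libraries of a kit that does not mark strand. The genome build in the submitters' processing notes is TAIR10, and no aligner, counting tool or test is named there. The authors deposited 3 comparison tables that cover all genes and hold, per the file headers, the log2 fold change, signed fold change, p-value, FDR and Bonferroni p of each gene. The deposited level is the higher genotype mean; that it is in RPKM was found from the values, since each mean is the average of whole read numbers divided by exon length and a library total. Log2 values and p-values are absent for 10720 genes without reads.

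Library totals and reads were solved from the means with Python 3.11.15, numpy 2.4.6 and pandas 2.3.3 at a tolerance of 0.0001; 99.4% of 46159 means gave 1 solution and 0 gave solutions in more than 1 genotype. On simulated data 4557 of 4557 means gave the true reads. One read per kilobase is 0.0508 to 0.0940 RPKM. Calls use the deposited FDR under 0.05, which counts all 34262 listed genes. Groups follow the labelled genotype, and the means carry no replicate number.

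Members and gene lists were chosen with earlier results of these data known. Named were JMJ28, the 7 members, up to 4 genes per list with the smallest FDR against WT, and the 5 genes nearest CAF1A by Euclidean distance over both log2 fold changes against WT, among genes with a highest genotype mean of at least 5 RPKM; other list genes were named after their values were seen. Upstream windows, proteins and transcripts came from RefSeq TAIR10.1, which holds 32547 of the listed genes, 32531 with identical start and end; no member overlaps another gene. The upstream window of 1 member is not reported here. Proteins were aligned globally with Biopython 1.88 (BLOSUM62, gap penalties 11 and 1). Alternatives were the deposited Bonferroni p, Benjamini-Hochberg adjustment over fewer genes, stricter thresholds, a pseudocount of 1 RPKM, median-ratio scaling and leaving out a library. A shorter deposited list was not used.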

Additional observations from a re-analysis of the deposited data

How the results depend on the processing

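No paired analysis was possible because the deposited means carry no replicate number. The members called were CAF1A and SZF1 in jmj28 against WT with Benjamini-Hochberg adjustment over genes with reads or of at least 1 RPKM, with at least 1.5-fold, and at an FDR under 0.01, and CAF1A alone (1 of 2) at a Bonferroni p under 0.05. In JMJ28np5-OE against WT, Bonferroni left SZF1 and SZF2 (2 of 4), and TZF5 was lost at an FDR under 0.01. Between jmj28 and JMJ28np5-OE the count was 5, and 4 under Bonferroni, where CAF1B was lost.

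List counts below include the members that belong to a list. Under Bonferroni, jmj28 against WT had 0 TZF genes and 1 root marker; JMJ28np5-OE against WT had 0 CAF1 genes, 2 TZF genes, 0 CCR4-NOT partners and 8 rapid stress genes; and jmj28 against JMJ28np5-OE had 1 CAF1 gene, 0 CCR4-NOT partners, 1 decay gene, 17 rapid stress genes and 0 root markers. An FDR under 0.01 left 1 TZF gene in jmj28 against WT, 0 CCR4-NOT partners in JMJ28np5-OE against WT, and 1 decay gene and 2 root markers between jmj28 and JMJ28np5-OE. Requiring 1.5-fold left 0 CCR4-NOT partners in either comparison and 0 decay genes. Adjustment over genes with reads gave 1 root marker in JMJ28np5-OE against WT and 2 CCR4-NOT partners between jmj28 and JMJ28np5-OE; over genes of at least 1 RPKM the same counts were found, with 1 decay gene and 1 gene of the hormone pathway around SOM more in JMJ28np5-OE against WT and 1 CAMTA gene between jmj28 and JMJ28np5-OE.

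Over all genes the calls numbered 307 in jmj28 against WT, 95 under Bonferroni and 196 at an FDR under 0.01. In JMJ28np5-OE against WT they were 836, against 210 under Bonferroni, 480 with 1.5-fold and 508 at an FDR under 0.01. Between jmj28 and JMJ28np5-OE they were 2687, against 630, 1497 and 1667.

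Of 54 log2 ratios without 1 solved library, 4 changed sign, all 4 of them in SOM or PEI1. Median-ratio scaling shifted JMJ28np5-OE against WT by a median of -0.11 from the deposited values over the 4047 genes that set the scale. These had all 4 libraries solved at a mean of at least 5 RPKM. By construction, their lowest genotype mean was in jmj28. The deposited median over all tested genes was already 0.0020, so the shift cannot be told apart from the choice of these genes. After scaling, CAF1A stood at 1.42, SZF1 at 1.39, SZF2 at 0.93, TZF5 at 0.62 and CAF1B at 0.57. For the jmj28 libraries of the 5 expressed members, which could not be solved, neither scaling nor leaving out was run.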
